A study of Drosophila melanogaster with 7 samples.

Results

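The glycolytic enzymes described here are a fixed list of 10 Drosophila melanogaster genes that together cover the path from glucose to phosphoenolpyruvate. The list was set by gene name, with earlier results of these data known. A probe belonged to the list when its gene symbol, or its current name in the RefSeq gene table, was one of the 10. By this rule 9 genes were found, with 10 of the 14569 probes in the file and among 11609 named genes in all. Hex-A, Pgi, Pfk, Ald1, Gapdh1, Pgk, Pglym78 and Eno had 1 probe each and Tpi had 2, while Gapdh2 was not analysed here. The genes lie on X (Hex-A), 2L (Pgk and Eno), 2R (Pgi, Pfk and Gapdh1) and 3R (Ald1, Tpi and Pglym78).

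RNA from salivary glands of crawling larvae of the third instar was compared on 7 two-colour arrays, each with its own pair of samples. In 1 sample of each pair the only Rad21 was a form with cleavage sites for the TEV protease (Rad21ex15 Rad21(TEV) over Rad21ex3). Cohesin is a protein ring around DNA, Rad21 holds it shut, and cutting Rad21 opens it. The partner sample had a Rad21 that the protease leaves intact. On arrays 1.1, 1.2 and 1.3 that sample carried genomic Rad21 over Rad21ex3, and on arrays 2.1, 2.2, 2.3 and 2.4 it carried Rad21ex3 with the transgene tgRad21 over Rad21ex3. All larvae shared the w1118 background, 1 copy of the heat-inducible protease transgene hs-TEV, a Rad21ex3 chromosome, a heat shock of 45 min at 37 °C and a recovery of 10 to 12 h. The cleaved and the intact samples are of different genotypes, so cleavage of Rad21 and any other difference between the stocks cannot be told apart. The sources used here do not say how many glands or larvae made up a sample.

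Glycolysis splits glucose into pyruvate. Its preparatory steps spend ATP to phosphorylate the sugar and cut it into triose phosphates, and its later steps return ATP. Growing fly larvae run it at a high rate and use its intermediates for biosynthesis, and in embryos and larvae the nuclear receptor ERR is known to switch its genes on together. The salivary gland of the last larval instar makes large amounts of glycosylated glue protein, so sugar phosphates there also feed the sugars that decorate secreted proteins.

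All values are the authors' deposited log ratios, 1 per probe and array, read here as log2, so that a difference of 1 is a factor of 2. Whether the cleaved sample is the numerator is not stated. A negative value likely means less transcript in glands with cleaved Rad21, because EcR, the ecdysone receptor gene, which is reported to be lower in cohesin-mutant fly neurons, was negative on 7 of 7 arrays (−1.77 ± 0.17, SE). Signs are therefore given as deposited, and a turned direction would keep every size but swap the negative with the positive counts. The arrays differed in spread, with 6.02% to 27.3% of probes beyond 1 in size, and their medians lay between −0.22 and 0.25. No intensities were used here, so levels cannot be compared between genes, a ratio cannot show whether a gland marker is present, and the signal over background behind each ratio is unknown. In whole glands, fewer cells with a transcript and less transcript per cell cannot be told apart.

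None of the glycolytic enzyme probes passed the test between cleaved and intact cohesin (0 of 10, limma, adjusted p 0.136 to 0.979), against 7.95% of all probes. At an unadjusted p under 0.05 there were 3 of 10 probes, for Pfk, Ald1 and Pglym78, against 20.0% of all probes. The fitted log2 ratios ran from −0.68 to 0.26 and were negative for 7 probes and positive for 3, and 47.1% of all probes were negative. Their median was −0.21, where the median of all probes was 0.02. Without array 2.4 it was −0.33. The 95% intervals of 6 probes lay within 1 log2 unit of 0 on both sides, and those of Pgi, Pfk, Ald1 and Pglym78 reached past −1. Data were also simulated with each probe's own spread, equal on all arrays, and with 200 of 14569 probes changed. There, 29% of probes with a true log2 ratio of 1 and 98.5% of those with 2 were recovered. In that setting, changes of the sizes fitted here would often be missed by the test. The real arrays differed in spread and had more probes called, so the share missed may differ.

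**Figure D1:**
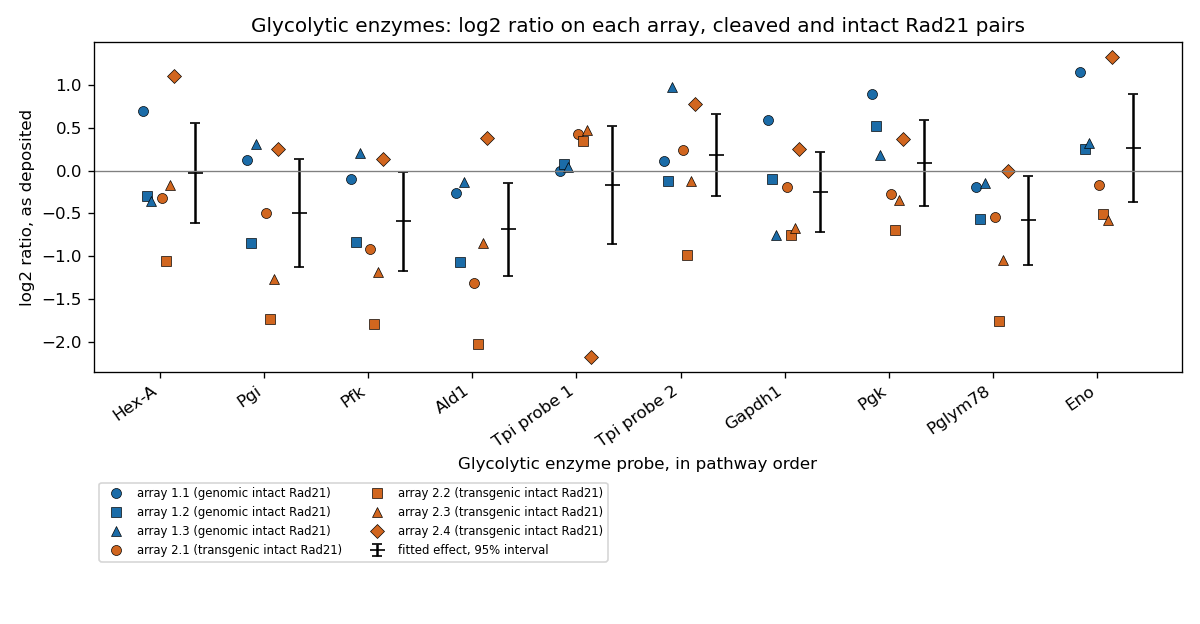
The log2 ratio (y axis) of each glycolytic enzyme probe, in pathway order (x axis), with 1 point per array, blue for arrays with genomic and orange for arrays with transgenic intact Rad21, and the fitted effect with its 95% interval in black. Ald1 has the lowest fitted effect at −0.68 and Eno the highest at 0.26, and array 2.2 (orange squares) is the lowest point for 8 of the 10 probes.

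Hexokinase, phosphoglucose isomerase and phosphofructokinase take glucose to fructose bisphosphate. Hex-A encodes the hexokinase that traps glucose in the cell, and its log2 ratios were 0.69, −0.30 and −0.36 on the genomic arrays and −0.32, −1.05, −0.17 and 1.1 on the transgenic arrays. Its fitted effect was −0.03 ± 0.25 (SE, n = 7 arrays, 95% interval −0.61 to 0.56, limma adjusted p = 0.979), so the highest and lowest arrays lay on opposite sides of 0 and both were transgenic arrays. Pgi, which converts glucose 6-phosphate to fructose 6-phosphate, had 0.12, −0.85 and 0.31 on the genomic arrays and −0.50, −1.73, −1.27 and 0.25 on the transgenic arrays. Its effect was −0.49 ± 0.27 (95% interval −1.12 to 0.14, limma adjusted p = 0.405), with 4 arrays below and 3 above 0. Pfk, which makes the committed step of the pathway, had −0.10, −0.83 and 0.21 on the genomic arrays and −0.91, −1.79, −1.18 and 0.14 on the transgenic arrays. Its effect was −0.59 ± 0.25 (95% interval −1.17 to −0.02, limma adjusted p = 0.233). The Pfk and Pgi values kept nearly the same order across the arrays, low on 2.2 and 2.3 and above 0 on 1.3 and 2.4.

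Aldolase and triose phosphate isomerase complete the preparatory steps. Ald1, which cuts fructose bisphosphate into its triose phosphates, had −0.26, −1.07 and −0.13 on the genomic arrays and −1.31, −2.02, −0.85 and 0.38 on the transgenic arrays. It was negative on 6 of 7 arrays, and its effect of −0.68 ± 0.24 was the lowest of the list (a ratio of 0.622, 95% interval 0.426 to 0.909). It did not pass either (limma adjusted p = 0.136). Tpi, which interconverts the triose phosphates, was read by probes that disagreed. The first Tpi probe had −0.01, 0.08 and 0.04 on the genomic arrays and 0.43, 0.34, 0.47 and −2.17 on the transgenic arrays, so 6 arrays lay near or above 0 and array 2.4 far below. The second Tpi probe had 0.11, −0.12 and 0.97 on the genomic arrays and 0.24, −0.99, −0.12 and 0.78 on the transgenic arrays. Their effects were −0.17 ± 0.30 and 0.18 ± 0.21 (limma adjusted p = 0.865 and 0.765), and without array 2.4 the first probe had 0.23 in place of −0.17.

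Among the enzymes of the later steps, Pglym78 was the most negative. Pglym78 encodes the phosphoglycerate mutase that shifts the phosphate of 3-phosphoglycerate, and its ratios were −0.19, −0.56 and −0.14 on the genomic arrays and −0.54, −1.75, −1.04 and −0.01 on the transgenic arrays. It was the only glycolytic probe negative on 7 of 7 arrays, as were 5.41% of all probes, and its effect was −0.58 ± 0.23 (a ratio of 0.670, limma adjusted p = 0.189). Eno, the enolase that forms phosphoenolpyruvate, had 1.15, 0.25 and 0.32 on the genomic arrays and −0.17, −0.51, −0.58 and 1.32 on the transgenic arrays. Its effect of 0.26 ± 0.27 (95% interval −0.37 to 0.89, limma adjusted p = 0.728) was the highest of the list, although 3 of the 4 transgenic arrays were negative. Gapdh1, a glyceraldehyde 3-phosphate dehydrogenase, ranged from −0.75 on arrays 1.3 and 2.2 to 0.59 on array 1.1, with an effect of −0.25 ± 0.20 (limma adjusted p = 0.624). Gapdh1 and Gapdh2 are close copies, and whether this probe also binds Gapdh2 transcript was not tested. Pgk, the phosphoglycerate kinase that returns the first ATP, ranged from −0.69 on array 2.2 to 0.89 on array 1.1, with an effect of 0.09 ± 0.22 (limma adjusted p = 0.905).

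The glycolytic enzymes varied together from array to array. The median of the 10 probes was 0.12, −0.21 and 0.11 on the genomic arrays and −0.30, −1.02, −0.63 and 0.31 on the transgenic arrays. On arrays 2.2 and 2.3 the ratio was negative for 9 of the 10 probes, while all probes on those arrays had positive medians (0.11 and 0.25). On array 2.4 the ratio was positive for 8 of 10 probes, and the median of all probes there was −0.15. The cleaved sample carried Cy5 on array 2.2 and Cy3 on arrays 2.3 and 2.4, so the low arrays were of both dye orientations.

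To describe this, each gene's ratios were centred on the array medians and correlated between genes over the 7 arrays. Pearson's r was positive for 33 of the 36 gene pairs, with a median of 0.81, while over all pairs of probes the median was −0.01, and 3.65% of those pairs reached the median of the glycolytic enzymes. Pfk and Pgi had the highest r, at 0.99 (Spearman's rho 1.0), and Pglym78 reached 0.97 with Pgi and 0.96 with Pfk. Enolase followed Hex-A at 0.90 and Pgk at 0.89. Without Tpi, whose probes correlated at −0.48 with each other, the lowest r among the other 8 genes was 0.59, between Ald1 and Gapdh1. Without arrays 2.2 and 2.4, the farthest from the median profile, the median r was 0.66, a value that 16.3% of all probe pairs reached over the remaining 5 arrays. These values describe 7 pairs of samples and share the same arrays, and the signal ranges of the probes could not be compared here.

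**Figure D2:**
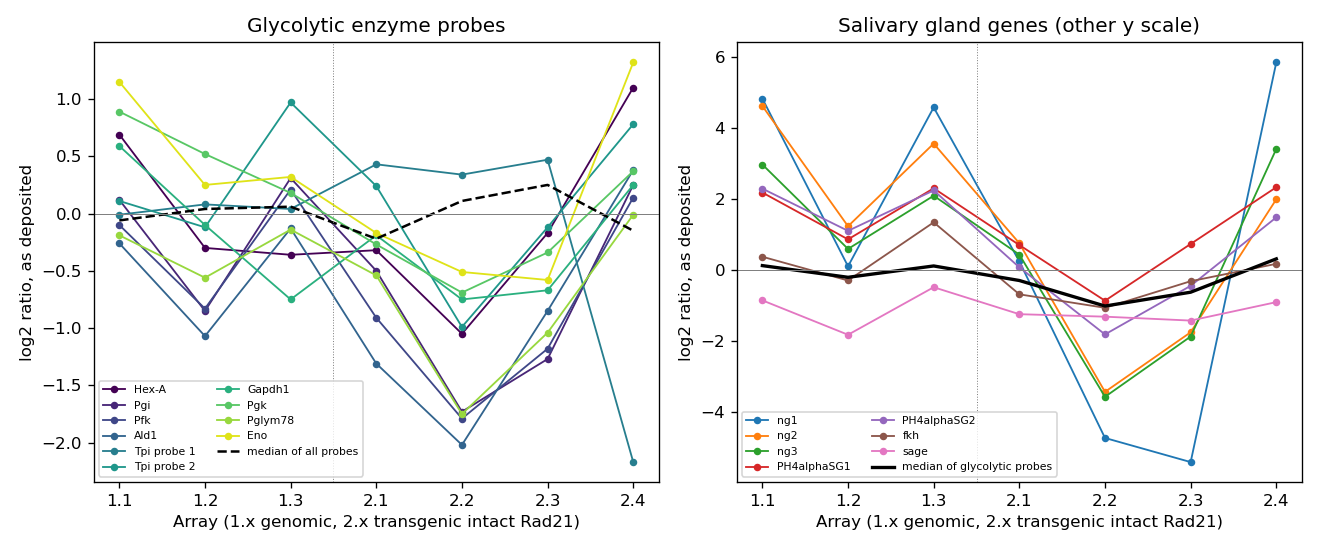
Log2 ratio (y axis) by array (x axis; 1.x with genomic, 2.x with transgenic intact Rad21), for the 10 glycolytic enzyme probes with the median of all probes dashed (left panel) and for 7 salivary gland genes with the median of the glycolytic probes in black (right panel, wider scale). Most glycolytic lines dip on arrays 2.2 and 2.3 and return above 0 on 2.4 while the dashed line does not, and ng1, ng2 and ng3 dip on the same arrays. The glue genes Sgs1, Sgs4 and Sgs5, also measured as gland markers, are not drawn. They did not follow the mean glycolytic profile (correlations of 0.03, 0.01 and 0.26).

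Some of the salivary gland's own genes were low and high on the same arrays as the glycolytic enzymes, and others were not. The new-glue genes are transcribed in the larval gland during the last instar. Ratios of ng1 were 4.83, 0.10 and 4.58 on the genomic arrays and 0.24, −4.74, −5.42 and 5.85 on the transgenic arrays. For ng3 they were 2.97, 0.59 and 2.09 on the genomic arrays and 0.43, −3.58, −1.88 and 3.41 on the transgenic arrays. Both were thus low on arrays 2.2 and 2.3 and high on array 2.4, as the glycolytic enzymes were. Over the whole list of gland markers (10 of 11 genes measured), the median was 1.28, 0.19 and 1.72 on the genomic arrays and −0.14, −1.79, −0.98 and 0.82 on the transgenic arrays. The correlation with the mean glycolytic profile exceeded 0.7 for 6 of the 10 gland marker probes, against 12.9% of all probes. It was 0.99 for ng3 and 0.96 for ng1, and the 4 gland probes below 0.7 were those of the gland transcription factor gene sage (0.69) and the glue genes Sgs5 (0.26), Sgs1 (0.03) and Sgs4 (0.01). Between cleaved and intact cohesin, 2 of the 10 gland probes passed the test, both negative, against 7.95% of all probes. They were Sgs1 at −6.21 ± 0.31 and sage at −1.13 ± 0.17 (limma adjusted p = 9.12e-05 and 0.00844), each negative on 7 of 7 arrays. ng1, ng3, Sgs4 and Sgs5 were singled out after their values were seen. The part that such gland differences between the samples of a pair have in the glycolytic values was not tested.

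Muscle is rich in glycolytic enzymes, and muscle, fat body, blood cells or nerve can adhere to a dissected gland. For 15 muscle marker probes of 11 of 14 listed genes, the median was −0.01, 0.20 and −0.04 on the genomic arrays and −0.61, −0.64, 0.15 and −0.42 on the transgenic arrays. Of these, 3 exceeded a correlation of 0.7 with the glycolytic profile, as did 1 of 5 fat body, 1 of 10 hemocyte and 0 of 10 nervous system probes. The share over all probes was 12.9%. In the test between cleaved and intact cohesin, in which 3.8% of all probes were negative and 4.15% positive past the threshold, 2 of the 15 muscle probes had negative calls, both of the troponin gene TpnC73F (−1.15 ± 0.20 and −1.23 ± 0.24, limma adjusted p = 0.0122 and 0.0203). The fat body list (5 of 8 genes) had 1 positive, Apoltp, which encodes a lipid transfer protein, at 0.91 ± 0.19 (limma adjusted p = 0.0278), the hemocyte list 0 (1 at an unadjusted p under 0.05), and the nervous system list 1 positive, nrv2, for a subunit of the sodium pump, at 1.34 ± 0.13 (limma adjusted p = 0.00125). The part of other tissues in the glycolytic values was not tested.

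The next comparison asked whether the ratios depended on the kind of intact Rad21. In the fit, all 10 glycolytic probes had a higher log2 ratio on the genomic than on the transgenic arrays, by 0.15 to 0.83 with a median of 0.61 (with arrays centred and scaled, the median was 0.27, Hex-A had −0.02 and Ald1 −0.01). With 1 array left out, the difference was below 0 for Hex-A without 1.1 (−0.22) or 2.2 (−0.15), for Gapdh1 without 1.1 (−0.08) or 2.2 (−0.05) and for the first Tpi probe without 1.3 (−0.35) or 2.4 (−0.38). By comparison, 56.7% of all probes lay above 0 and their median difference was 0.07. None passed the test of the difference (0 of 10, limma adjusted p 1.0 for each), and of all probes 0.0% passed it. At an unadjusted p under 0.05 it was 0 of 10 against 4.26% of all probes. Every 95% interval of the 10 differences included 0. Pgk averaged 0.53 ± 0.36 (SD, n = 3) on the genomic arrays and −0.23 ± 0.44 (SD, n = 4) on the transgenic arrays, a fitted difference of 0.78 with a 95% interval of −0.10 to 1.65. Pfk averaged −0.24 ± 0.53 on the genomic arrays and −0.94 ± 0.80 on the transgenic arrays, with a fitted difference of 0.83 (95% interval −0.22 to 1.87). For each of the 10 probes the values of the 2 kinds of array overlapped, as they did for all but 3.97% of probes. The test was also run on simulated data in which 200 of 14569 probes differed by 2 between the control types. It recovered 0% of these, so differences of that size could go uncalled here. The simulated arrays had equal spread, which the real arrays did not, so the share recovered may differ. The median difference was 0.32 without array 2.2 and 0.86 without array 2.4.

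**Figure D3:**
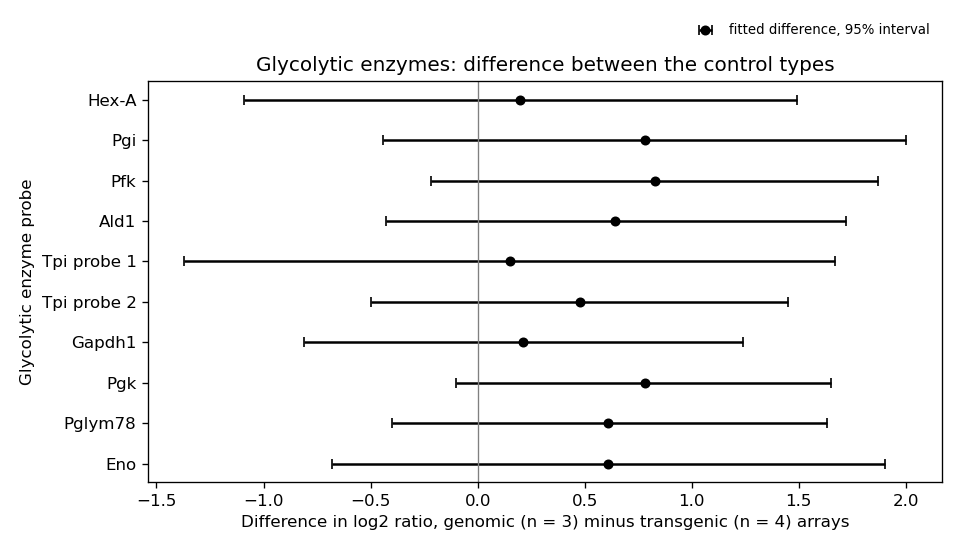
Fitted difference in log2 ratio between genomic and transgenic intact Rad21 arrays (x axis, genomic minus transgenic, n = 3 and 4 arrays) for each glycolytic enzyme probe (y axis), with 95% intervals. All 10 points lie above 0, between 0.15 and 0.83, and all intervals cross 0. With arrays centred and scaled, which is not drawn, Hex-A (−0.02) and Ald1 (−0.01) lie below 0.

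Genes around glycolysis were taken as 8 whole lists, 74 names in all, of which 58 genes with 63 probes were measured. Of these probes 7 passed the test, 6 negative and 1 positive, which is 11.1% called against 7.95% of all probes (3.8% negative and 4.15% positive). The median of the 63 was 0.00. The calls were single genes in sugar supply and storage, in the citric acid cycle, among the paralogs and among the regulators.

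In the list of sugar supply and storage, 3 of 11 probes had negative calls and 8 were not past the test. That is 27.3% called, against 7.95% of all probes (3.8% negative). Galk, the galactokinase that phosphorylates galactose for entry into the pathway, had −2.11, −2.86 and −3.07 on the genomic arrays and −2.84, −3.44, −3.42 and −2.58 on the transgenic arrays. Its effect was −2.92 ± 0.19 (limma adjusted p = 0.000245), and it was negative on 7 of 7 arrays. Treh, the trehalase that splits trehalose, the main blood sugar of insects, into glucose, had −1.92, −1.40 and −2.90 on the genomic arrays and −1.12, −2.92, −2.31 and −1.69 on the transgenic arrays. Its effect was −2.07 ± 0.25 (limma adjusted p = 0.00282). UGP, which makes the UDP-glucose used for glycogen, trehalose and glycoproteins, had an effect of −1.08 ± 0.19, with 0.00 on array 1.1 and −0.52 or lower on the other arrays (limma adjusted p = 0.0146). The call of UGP was lost without array 1.2 (adjusted p = 0.0519) or 2.4 (0.0542) by limma.

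In the citric acid cycle, which burns the pyruvate that glycolysis makes, 2 of 14 probes passed the test, both negative, and 12 did not. That is 14.3% called, against 7.95% of all probes (3.8% negative). mAcon1, the mitochondrial aconitase, had −0.81, −1.20 and −1.43 on the genomic arrays and −1.24, −0.32, −1.66 and −1.47 on the transgenic arrays, an effect of −1.20 ± 0.16 (limma adjusted p = 0.004). Unlike most glycolytic enzymes it was highest on array 2.2. SdhD, a membrane anchor of succinate dehydrogenase, had an effect of −0.74 ± 0.16 and was negative on 7 of 7 arrays (limma adjusted p = 0.027), but its call was lost without array 1.2, 1.3, 2.1, 2.2 or 2.4 (adjusted p up to 0.0929). The list's median was −0.27, with 11 of 14 probes below 0. The lists of pyruvate entry into mitochondria (4 probes), the pentose phosphate pathway (5 probes) and gluconeogenesis (4 probes) had 0 calls by limma. At an unadjusted p under 0.05 each had 1 probe, where 20.0% of all probes lay, so these counts are near the background. They were the mitochondrial pyruvate carrier gene Mpc1 (−0.75 ± 0.20, limma adjusted p = 0.0582), the phosphogluconolactonase gene Pgls (−0.53 ± 0.14, adjusted p = 0.0543) and the fructose bisphosphatase gene fbp (−0.86 ± 0.26, adjusted p = 0.0886). These genes were named after their values were seen.

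Among paralogs of the glycolytic enzymes, 1 of 12 probes passed (8.33%, against 7.95% of all probes), so the count is near the background. The probe that passed was 1 of the 2 of CG7059, a phosphoglycerate mutase paralog. It lay at 1.67 ± 0.25 and was positive on 7 of 7 arrays (limma adjusted p = 0.0078), while the other CG7059 probe lay at 0.13 ± 0.19. None of the 12 exceeded a correlation of 0.7 with the mean glycolytic profile, against 12.9% of all probes. Gpdh1, the glycerol 3-phosphate dehydrogenase that draws triose phosphate out of the pathway, had 3 probes with effects of 1.06 ± 0.34, 1.45 ± 0.54 and 1.04 ± 0.36, none past the test (limma adjusted p = 0.104, 0.164 and 0.138). All 3 probes of this gene had an unadjusted p under 0.05 by limma, against 20.0% of all probes. The second Gpdh1 probe had 2.62, 1.38 and 2.57 on the genomic arrays and 1.86, −1.44, −0.14 and 2.95 on the transgenic arrays, low on the same arrays as the glycolytic enzymes but at a higher ratio. Of the 3 probes it had the highest correlation with the mean glycolytic profile (0.97), with 0.93 for the third and 0.5 for the first. The first probe was positive on 7 of 7 arrays, from 0.09 on array 2.3 to 3.08 on array 1.3. Pyk and Ldh, which make pyruvate and lactate, were not analysed here.

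Of 10 probes for regulators of glycolytic genes, 1 passed (10.0%, against 7.95% of all probes), so the count is near the background. The probe that passed was that of foxo, a transcription factor held in check by insulin signalling. Its ratios were −0.92, −0.89 and −0.95 on the genomic arrays and −1.57, −0.89, −0.86 and −0.60 on the transgenic arrays, an effect of −0.94 ± 0.15 (limma adjusted p = 0.00844). ERR, singled out for its known role after its value was seen, had an effect of −0.01 ± 0.14 (limma adjusted p = 0.98) and ranged from −0.45 on array 1.3 to 0.49 on array 2.2. Its correlation with the mean glycolytic profile was −0.27 over the 7 arrays.

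**Figure D4:**
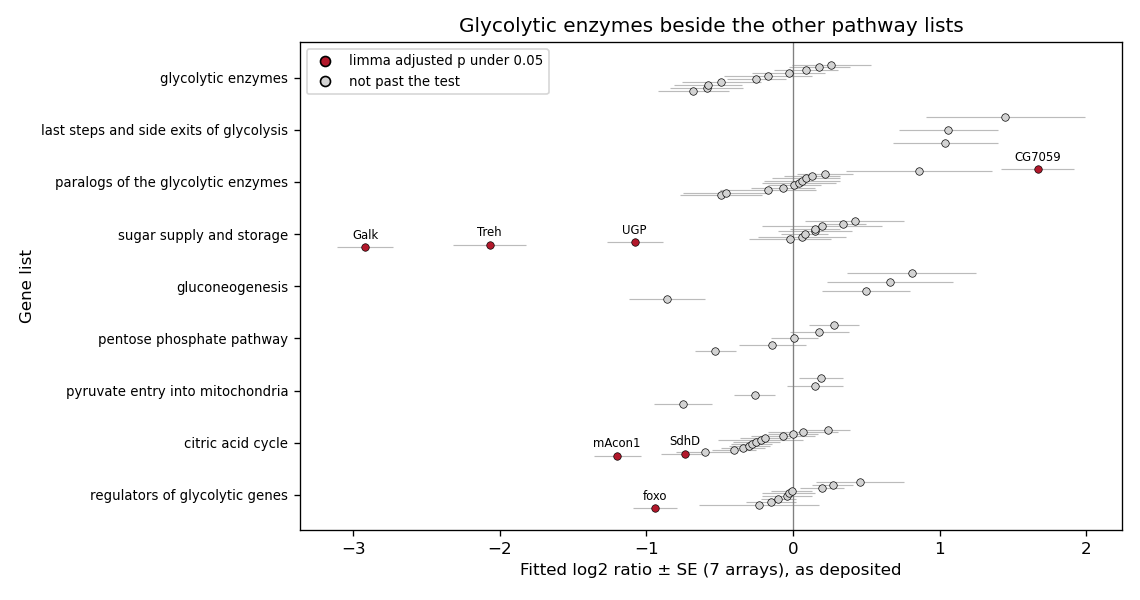
Fitted log2 ratio ± SE (x axis, 7 arrays) of every probe of the glycolytic enzymes and of the 8 other pathway lists (y axis), red where limma's adjusted p was under 0.05. The glycolytic enzymes lie between −0.68 and 0.26 with none in red, while Galk (−2.92) and Treh (−2.07) lie far to the left.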

How the data were processed

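The file holds the authors' deposited log ratios (taken as log2) of 7 two-colour arrays, 1 per probe, with 0 missing values. The sources used here name neither the background correction nor the normalization nor the log base. Base 2 was assumed because 2 values are larger in size than 11.1, which a natural-log ratio of 16-bit readings would not exceed. Ratios of opposite dye orientation correlated at 0.011 to 0.481 between arrays, so they were taken as already turned one way. Depth has no counterpart here, and the number of arrays (3 with genomic, 4 with transgenic Rad21, independent pairs per the labels) limits the precision.

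Probes were named from the platform annotation through the RefSeq gene table of Release 6 (12657 probes with 1 gene, 96 with several, 1815 with none). Each probe was fitted with limma 3.58.1 (R 4.3.3, lmFit and eBayes) with a gene-wise dye term, 5 residual and 3.04 prior degrees of freedom, and Benjamini-Hochberg adjustment over all 14569 probes at 0.05. The second fit had an effect per control type. Both were tested on simulated data. The dye term passed for 0 probes. All glycolytic probes were named, and of the other lists every gene past the test and Gpdh1, while genes the text calls singled out or named after their values were seen fall outside this rule. The genes and lists were chosen with earlier results of these data known. No sequences were used.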

Additional observations from a re-analysis of the deposited data

Results flagged for a closer look

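The first Tpi probe read −2.17 on array 2.4, far below the other 3 transgenic arrays (0.34 to 0.47) and below all other arrays, the lowest of which was −0.01. The second Tpi probe read 0.78 on that array, so the low value is seen in 1 probe of the gene. The gap to the next value was 0.95 of the whole range over the 4 transgenic arrays and 0.82 of it over the 7 arrays, both past Dixon's 95% critical values, which chance passes in about 1 in 20 groups. In all, 20 groups of values were looked at for the glycolytic enzymes.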

How the results depend on the processing

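Under none of the 16 alternatives was a glycolytic probe called for cleaved against intact cohesin (lowest limma adjusted p 0.0891, Ald1 without an array). Among these, the threshold of 0.01 reused the main fit, so it could add no call and change no sign. The number of probes called over the whole array was 389 at an adjusted p under 0.01, 2781 on the genomic and 39 on the transgenic arrays alone, and 515 to 1157 with 1 array left out. The genomic fit had 3 arrays and a dye term, with array 1.3 the only one of the other dye orientation. It left few residual degrees of freedom, so the counts of the 2 kinds of array do not show which had more change. The median of the glycolytic enzymes was −0.06 on the genomic and −0.29 on the transgenic arrays alone, and −0.33 (without array 2.4) to −0.17 with 1 array left out. Hex-A changed sign with array weights (0.15) and ran from −0.25 to 0.11 with 1 array left out. The first Tpi probe had 0.00 with probes averaged by gene, 0.04 on the genomic arrays alone and −0.43 to 0.23 with 1 array left out. On the transgenic arrays alone the second Tpi probe had −0.02 and Pgk −0.23, and Pgk ran from −0.04 to 0.23 with 1 array left out. Pgi, Pfk, Ald1, Gapdh1 and Pglym78 were negative and Eno positive under all 16. Averaging by gene could not change these signs either, as each of these genes has 1 probe. Some values came close to 0. Pgi had −0.03 on the genomic arrays alone, and Eno had 0.01 on the transgenic arrays alone and 0.02 without array 2.4.

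Of the other pathway probes, 12 were called with array weights, 17 on the genomic and 1 on the transgenic arrays alone, and 5 to 9 with 1 array left out. Galk kept its call under all 16, UGP lost it under 5 and SdhD under 9. Treh, mAcon1, foxo and CG7059 lost theirs on the transgenic arrays alone (limma adjusted p 0.155 to 0.225). The cause was not tested.

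For genomic minus transgenic arrays, 1 probe of the array was called without the dye term, 1 with array weights and 0 under the others. With arrays centred and scaled, the median difference of the glycolytic enzymes was 0.27, Hex-A had −0.02 and Ald1 −0.01. With 1 array left out the lowest and highest differences were −0.22 and 0.88 for Hex-A, −0.08 and 0.71 for Gapdh1 and −0.38 and 0.51 for the first Tpi probe. The deviations of arrays of equal number in both sets correlated at 0.033 (1.1 and 2.1), 0.324 (1.2 and 2.2) and −0.22 (1.3 and 2.3), not all above 0.1, so the numbers were not taken to pair them. With the number as a replicate block in place of the dye term, 0 probes were called, the median difference of the glycolytic enzymes was 0.86 and the first Tpi probe had −0.38. The median pairwise correlation of the glycolytic enzymes was 0.93 within the transgenic and 0.55 within the genomic arrays, values that 4.72% and 32.8% of all probe pairs reached there (alternatives chosen after seeing the data).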

Other observations

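Several of the other pathway lists held genes whose ratios followed the glycolytic enzymes from array to array, and others did not. Correlation with the mean glycolytic profile exceeded 0.7 for 6 of 11 probes of sugar supply and storage, 3 of 4 of gluconeogenesis, 3 of 5 of the pentose phosphate pathway 2 of 4 of pyruvate entry into mitochondria, 2 of 3 of Gpdh1 and 4 of 14 of the citric acid cycle, against 12.9% of all probes. It did so for 1 of 10 probes of the regulators and 0 of 12 of the paralogs. Pgm1, the phosphoglucomutase that links glycogen to glycolysis, had 0.72, −0.17 and 0.67 on the genomic arrays and 0.17, −1.57, −0.65 and 0.98 on the transgenic arrays, a correlation of 0.98. Tps1, which makes trehalose, had a correlation of 0.95, and its fitted effect was 0.20 ± 0.41 (limma adjusted p = 0.887). Transaldolase (Taldo) of the pentose phosphate pathway had a correlation of 0.97 and an effect of 0.18 ± 0.20. These genes were singled out after their values were seen, and the correlations are all over the same 7 arrays.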
